A study of Mus musculus with 294 samples.

Results

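The genes described here encode the proteins of the mitochondrial ribosome, taken as every gene whose current symbol begins with Mrpl or Mrps followed by a digit. The rule found 76 of the 16643 genes measured, 49 of the large subunit (Mrpl) and 27 of the small subunit (Mrps). Of these, 73 carried a matching symbol in the platform annotation, and 3 were reached through an older symbol: Ict1, now Mrpl58, Mrp63, now Mrpl57, and D10Ertd322e, now Mrpl42. The 76 genes were read by 99 probes, and 19 genes had several probes, of which the brightest was used.

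Livers of 294 F2 mice were measured, 1 array per animal, the second generation of a cross between B6/J and A/J, both inbred strains. All animals form 1 group: the labels give no age, sex, diet or treatment, and no parental or F1 liver was analysed here. An F2 intercross carries a mixture of both parental genomes that differs from animal to animal, so the data show how each gene varied among animals and which genes varied together. Values are log2 of the deposited intensity, and since each probe has its own brightness, levels were not ranked between genes.

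Mitochondrial ribosomes translate the messages of the mitochondrial genome, which encode core membrane subunits of the respiratory chain and of ATP synthase. All of their proteins are encoded in the nucleus, made in the cytosol and imported, and the remaining respiratory chain subunits are nuclear as well. Hepatocytes are rich in mitochondria and rely on the respiratory chain for urea and glucose synthesis.

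The start regions of the members are shown first, because several results below concern which genes lie beside a member. RefSeq windows on GRCm38.p6 were matched for 68 of the 76 members, and the 250 bases before each gene's annotated start were searched on both strands. The site of nuclear respiratory factor 1 (NRF1), searched as its palindromic core with 1 open base, was found in 10 of 68 member windows, or 14.7%, against 3.86% of 27025 gene windows and 6.45% of the 13257 windows of measured genes. The letters CCGGAAG, bound by ETS factors such as GABP, were found in 17 members, or 25%, against 7.05% of all windows and 10.7% of those of measured genes. The YY1 letters AANATGGCG were found in 2 members, or 2.94%, against 1.12% of all windows and 1.63% of those of measured genes. The letters CCAAT were found in 24 members, or 35.3%, against 34.5% of all windows and 35.6% of those of measured genes. TATAAA was found in 4 members, or 5.88%, against 13% and 8.88%. The exact NRF1 core was found in 3 members and 0.781% of all windows, and every such window also counts for the open form. The longer YY1 form was found in 1 member, or 1.47%, against 0.218% and 0.370%, and the E-box CACGTG in 5, or 7.35%, against 6.05% of all windows and 7.77% of those of measured genes. At least 1 of the NRF1, ETS and YY1 forms was found in 28 member windows, or 41.2%, against 11.2% of all windows and 17.3% of those of measured genes. Median GC content was 58.4% in the member windows and 52% in all windows, and its part in these shares was not tested.

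Mrpl32 and its neighbour Psma2, a subunit of the proteasome core, are shown because they start on opposite strands in 1 shared region and their levels were correlated. Mrpl39 is shown as the member of narrowest spread, Mrpl12 as the member that differed most between label blocks, and Mrpl45 and Mrps12 as members whose nearest genes in correlation lay on their own chromosome. Each sequence runs 5′ to 3′ on the gene's strand and ends at the base before the annotated start. Capitals mark the NRF1 letters in Mrpl32, Mrpl39, Mrpl45 and Mrpl12, the NRF1 letters and CCAAT in Psma2, and CCAAT in Mrps12.
Mrpl32, chr13:14613038-14613187, minus strand: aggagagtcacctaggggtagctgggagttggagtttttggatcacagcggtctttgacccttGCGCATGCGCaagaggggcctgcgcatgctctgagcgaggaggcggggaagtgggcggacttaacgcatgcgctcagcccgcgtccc
Psma2, chr13:14613092-14613241, plus strand: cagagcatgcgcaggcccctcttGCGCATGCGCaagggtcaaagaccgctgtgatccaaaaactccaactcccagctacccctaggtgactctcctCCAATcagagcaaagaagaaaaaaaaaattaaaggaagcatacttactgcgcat
Mrpl39, chr16:84735245-84735394, minus strand: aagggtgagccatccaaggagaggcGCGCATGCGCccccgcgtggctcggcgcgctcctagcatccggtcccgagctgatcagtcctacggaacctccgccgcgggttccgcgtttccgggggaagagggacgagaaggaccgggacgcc
Mrpl45, chr11:97315566-97315715, plus strand: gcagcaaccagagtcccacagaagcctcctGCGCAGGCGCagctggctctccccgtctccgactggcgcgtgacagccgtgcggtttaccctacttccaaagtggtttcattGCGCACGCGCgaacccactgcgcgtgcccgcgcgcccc
Mrpl12, chr11:120484487-120484636, plus strand: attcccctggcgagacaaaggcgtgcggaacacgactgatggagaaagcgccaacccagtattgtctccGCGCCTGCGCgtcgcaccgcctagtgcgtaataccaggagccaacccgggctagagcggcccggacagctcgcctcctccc
Mrps12, chr7:28741822-28741967, minus strand: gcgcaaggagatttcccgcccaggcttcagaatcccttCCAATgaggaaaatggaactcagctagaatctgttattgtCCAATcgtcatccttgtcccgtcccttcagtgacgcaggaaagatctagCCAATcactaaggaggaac

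The arrays were alike. Each array was correlated with every other, and the median per array was 0.989, the lowest 0.974; 27 arrays of low correlation were left out in an alternative. The titles fall into 15 blocks by their first 3 digits, of 17 to 23 animals, and what these blocks stand for is not stated. The mean level of Y-linked genes left a gap with 148 animals below it and the others above, and the main relations between scores are also given within each side. Measured hepatocyte genes had a mean level of 13.5 on the log2 scale, where array medians lay between 4.40 and 4.53. Those of pancreas and muscle had means of 3.62 and 4.10.

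Most mitochondrial ribosomal genes varied less between animals than genes whose probes gave like signals. The probes of all 76 had a mean signal above the median over all genes, 5.46 log2. This places them among the brighter probes and does not rank their messages. The brighter genes are therefore also given as a background for the spread and for several of the counts below. The fold between the 90th and 10th percentiles of the 294 animals had a median of 1.30 over the members, from 1.17 to 1.65. The same median was 1.38 over all genes and 1.396 over the 8321 genes above the median mean level. A fold of at least 1.5 was reached by 6 members against 25.5% of all genes. The SD had a median of 0.158 log2 over the members and 0.189 over all genes. Set against the running median of SD along the level of all genes, 14 of 76 members lay above, and the ratio to it had a median of 0.822. In a bulk sample, fewer cells of a type and less RNA per cell cannot be told apart.

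Among large subunit genes, Mrpl27, whose bacterial counterpart lies at the peptidyl transferase centre, ranged from 9.54 through a median of 10.32 to 11.03 log2, and its fold was 1.64. Mrpl20 ranged from 7.98 through 8.65 to 9.53 with a fold of 1.57. Mrpl45, which lies by the exit tunnel and helps to hold the ribosome at the inner membrane, ranged from 6.95 through 7.46 to 7.99 with a fold of 1.52. The animals spread to both sides of the median in each of these genes. Mrpl1, a protein of the L1 stalk, ranged from 7.07 through 7.66 to 8.21 with a fold of 1.44. Mrpl34 ranged from 7.38 through 7.89 to 8.39 with a fold of 1.43.

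Among small subunit genes, Mrps12, a protein of the decoding site, had the widest spread of all members. It ranged from 8.55 through 9.24 to 10.09 log2 with a fold of 1.65. Mrps27, a protein of the pentatricopeptide repeat family, ranged from 7.09 through 7.67 to 8.44 with a fold of 1.54. Mrps18b, one of several paralogues of a bacterial small subunit protein, ranged from 8.08 through 8.69 to 10.16 with a fold of 1.52. Its highest animal lay farther above the median than its lowest animal lay below it.

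The narrowest members were all of the large subunit. Mrpl39 ranged from 8.98 through 9.35 to 9.57 log2 with a fold of 1.17. Mrpl24 ranged from 9.66 through 10.04 to 10.45, also with a fold of 1.17. Mrpl11, a protein of the factor-binding stalk base, ranged from 8.56 through 8.86 to 9.22 with a fold of 1.17, and Mrpl28 from 8.81 through 9.23 to 9.55 with a fold of 1.19. Among the 19 members with several probes, the 2 brightest probes of a gene had a median r of 0.454. This r was lowest for Mrpl19 at -0.0849, Mrpl58 at 0.0239, Mrps9 at 0.0291 and Mrps14 at 0.0448. The second probes of these genes had mean levels of 4.39, 3.82, 4.56 and 2.99 log2, near or below the array medians.

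**Figure D1:**
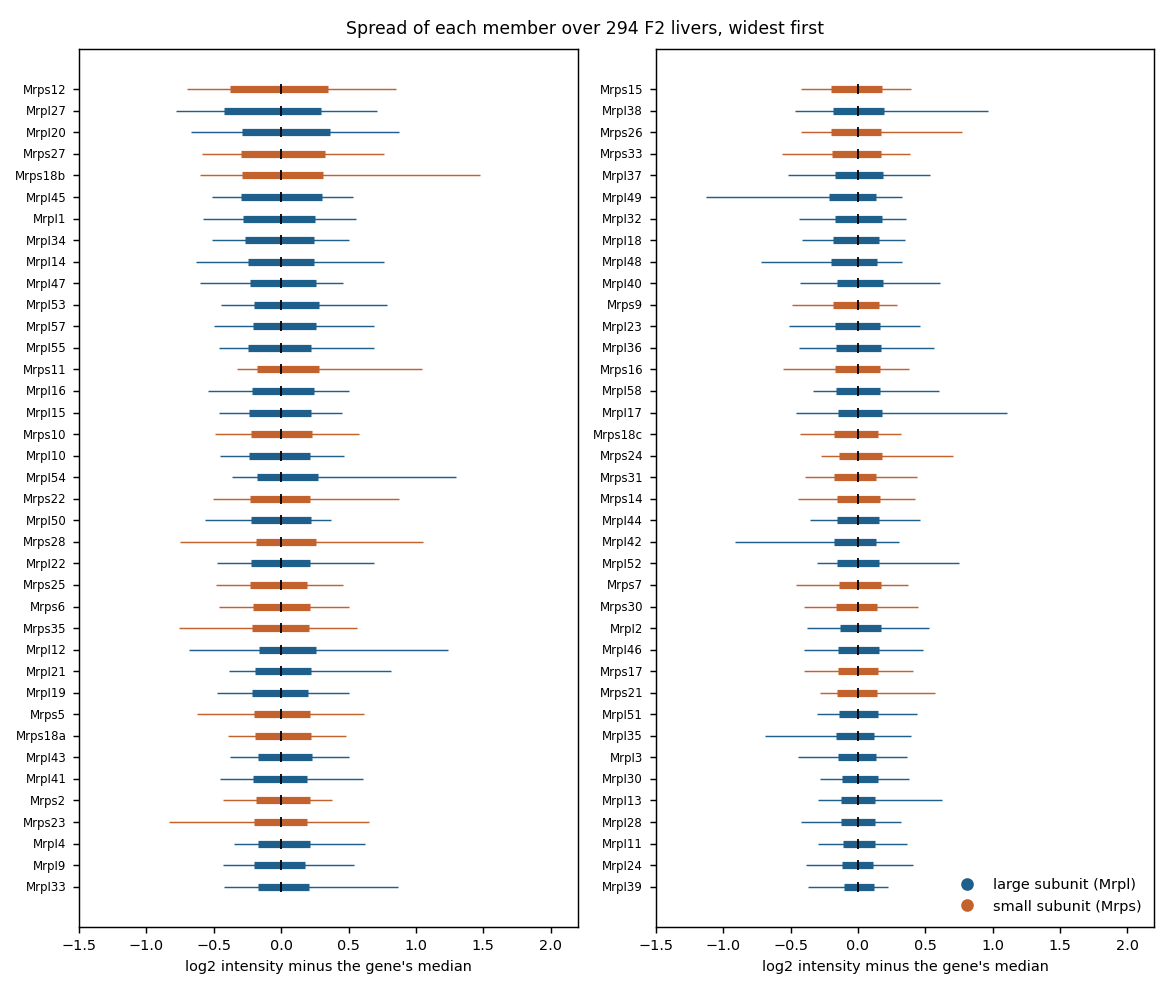
Spread of each of the 76 members over 294 livers, in log2 intensity minus the gene's own median (horizontal axis), widest first. Thick bars run from the 10th to the 90th percentile, thin lines from the lowest to the highest animal, blue is the large and orange the small subunit; Mrps12 and Mrpl27 are widest, with folds of 1.65 and 1.64, and Mrpl39 narrowest with 1.17.

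An F2 intercross segregates the alleles of each locus, so a gene under strong control of 1 locus can fall into classes of animals. Class shape was called where a mixture of 2 or 3 normal distributions had the lowest Bayesian information criterion, by at least 10 against 1 normal. Adjacent means had to lie at least 1.5 SD apart, with at least 5% of the animals in the smallest class. None of the 76 members and none of the 99 probes met this, against a background of 2.21% of all genes. For 18 members 2 normals fitted better than 1 by over 10, but in 17 of them the smaller class held under 15 animals. The other one was Mrpl48, with 19 animals in its lower class, where a skewed single distribution fitted better still. The small classes were mostly upper tails: 14 animals for Mrpl12, 11 for Mrpl54, 10 for Mrps24 and 9 for Mrps11. Other scalings gave 2 calls, Mrpl48 and Mrps14, after quantile normalization, and 1 call, Mrpl48, with the first principal component removed. Among the animals above the Y-linked gap, Mrpl45 was called.

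The upper tails were shared between genes. Over 20 members lay above 3 SD from their own mean in 3 animals of 3 different label blocks, with 22, 21 and 21 members. Over 4 members were that high in 8 animals. Of these 8 animals, 7 were among the 27 arrays of low correlation, so the main values below are also given without those arrays.

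The members rose and fell together across the animals. The mean Pearson r over their 2850 pairs was 0.302 and the median 0.322, and 2566 pairs, or 90.04%, were positive. The mean pairwise r over all genes was 0.00458, a background in which 36.6% of genes had a mean below every array median. The same value was not taken over the brighter genes alone. Within the respiratory chain genes used below it was 0.286, and within the measured cytosolic ribosomal genes 0.260. A mean r of this size is therefore not particular to the members. Among the members the mean r was 0.297 within the large subunit, 0.300 within the small subunit and 0.307 between them. Without the low-correlation arrays the mean over all members was 0.291, and below and above the Y-linked gap it was 0.299 and 0.315. The first principal component of the members took 35.1% of their variance, with loadings above 0 for 74 of 76, and the next took 10.7% and 7.64%.

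One technical value moved with the members. The mean of their standardised levels in an animal, called the member score, had r = -0.581 and rho = -0.588 with the array's median intensity, with r = -0.550 below and -0.566 above the Y-linked gap. All 76 members had negative r with the array median, against 49.4% of all genes. With the array median regressed out of every gene, the mean pairwise r of the members fell from 0.302 to 0.228, and its part in the relations below was not tested beyond the values given.

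Each member was set against the mean of the other 75 (n = 294 animals, a description). All had positive r, from 0.00406 to 0.800 with a median of 0.583. Without the low-correlation arrays 75 of 76 were positive, from -0.0519 to 0.781 with a median of 0.564. Highest was Mrps14 at 0.800, ahead of Mrpl2, a core protein of the peptidyl transferase centre, at 0.784. Mrpl40 had 0.769, Mrps18a 0.769, Mrps24 0.759, Mrps11 0.759, Mrpl11 0.758 and Mrpl53 0.752. These 8 lie close together in value, and both subunits are represented. Lowest was Mrpl15 at 0.00406, then Mrps9 at 0.0541, Mrpl1 at 0.0670 and Mrpl42 at 0.137. Mrpl15 ranged from 9.77 through 10.24 to 10.69 log2 with a fold of 1.37, above the members' median fold.

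The highest pair was Mrpl54 with Mrps11, at r = 0.799 and rho = 0.619. Mrpl57 with Mrps10 had r = 0.792 and rho = 0.789, and Mrpl54 with Mrps28 had r = 0.788 and rho = 0.666. Mrps11 with Mrps28 had r = 0.781, Mrpl55 with Mrpl57 had 0.778 and Mrpl57 with Mrps14 had 0.774. Without the low-correlation arrays, Mrpl54 with Mrps11 had r = 0.678 and Mrpl57 with Mrps10 had 0.784. The pairs of Mrpl54 lost more in rank than those of Mrpl57, and Mrpl54 and Mrps11 are among the members with an upper tail. Mrps11 and Mrpl46 start 42 bases apart on opposite strands and had r = 0.466. The lowest pairs all held Mrpl15: with Mrpl16 at r = -0.371, with Mrps10 at -0.326 and with Mrps22 at -0.315.

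**Figure D2:**
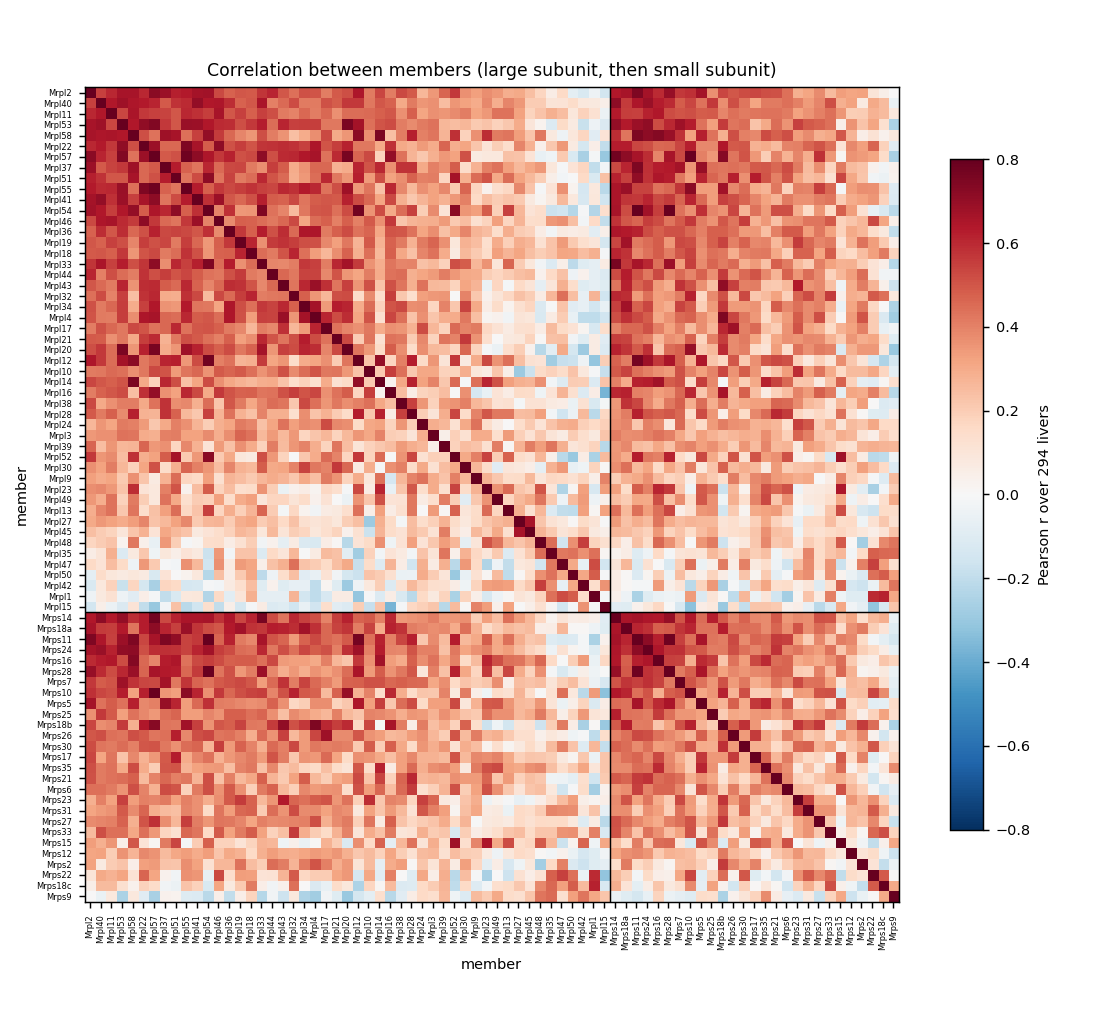
Pearson r between members over 294 livers (colour scale from -0.8 to 0.8), the 49 large subunit genes first and the 27 small subunit genes after the black line, each ordered by r with the mean of the other members. Most of the field is red (2566 of 2850 pairs positive), and the pale or blue rows are those of low r, ending with Mrpl15 and Mrps9.

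The members were then set against the respiratory chain. The respiratory chain score was the mean standardised level of 67 measured nuclear genes of complexes I to V, none of them a member, and each gene outside it was tested by permuting the animals. With Benjamini-Hochberg adjustment over 16576 genes, 68 of 76 members had a positive r and 0 a negative one, against a background of 20.4% of genes positive and 13.9% negative. Among the genes above the median mean level, where every member lies, the background was 35.3% positive and 20.9% negative, and the members' count was again 68. Without the low-correlation arrays it was 69, against 16.8% of all genes. The median r was 0.359 over the members and 0.0137 over all genes tested. Positive calls were made for 45 of 49 large and 23 of 27 small subunit genes, with median r of 0.342 and 0.444. For 57 members the adjusted p was 7.32e-05, from the smallest p that the permutations can give, 1e-05. No member was called negative at an adjusted p under 0.05, the lowest r being -0.0781.

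Mrps28 had r = 0.682 with this score, with a 95% interval of 0.615 to 0.739 (Fisher's z). Its level ranged from 8.31 through 9.06 to 10.11 log2. Mrps11, a platform protein of the small subunit, had r = 0.680 at levels from 7.20 through 7.53 to 8.57. Mrps21 had r = 0.634 and Mrps16 had 0.634, both small subunit proteins. In the large subunit Mrpl51 had r = 0.628 and Mrpl54 had 0.621. Mrpl58, a peptidyl-tRNA hydrolase that became part of the ribosome, had 0.621 and Mrpl28 had 0.615. These intervals overlap, so the order among the highest is not settled. Each of these genes was called at adjusted p = 7.32e-05 by the permutation test, and r was positive in all 15 label blocks for 7 of the 8, with Mrpl54 positive in 14.

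The 8 members not called were Mrps22 at r = -0.0781, Mrpl35 at -0.0537, Mrpl1 at -0.00344, Mrpl50 at 0.0140, Mrpl47 at 0.0243, Mrps2 at 0.0822, Mrps18c at 0.0869 and Mrps9 at 0.122. The interval of Mrps22 ran from -0.191 to 0.0366, that of Mrpl35 from -0.167 to 0.0611, and that of Mrpl1 from -0.118 to 0.111. None of these intervals reached the members' median of 0.359. Mrps22 ranged from 7.67 through 8.17 to 9.04 log2, and Mrpl35 from 8.84 through 9.54 to 9.93. Among themselves these 8 genes had a mean r of 0.313 (24 of 28 pairs positive), and with the other 68 of 0.0965, where the 68 had 0.351 among themselves, a description of groups formed by the test. The 5 genes nearest to Mrpl1 in correlation were Fastkd2, a mitochondrial RNA-binding protein, at r = 0.709, Nae1 at 0.691, 2210418O10Rik at 0.669, Manea at 0.662 and Tcea1 at 0.661, none a member.

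With the array median as a covariate, 64 members were called positive by limma's moderated test and 2, Mrpl35 and Mrps22, were negative, against 23.6% and 16.2% of all genes in that fit. The r of members near 0 changed sign between settings, as that of Mrpl35 did with block means removed (0.00126). With the 2 most distant animals in that score left out, no member's r moved by more than 0.0359.

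**Figure D3:**
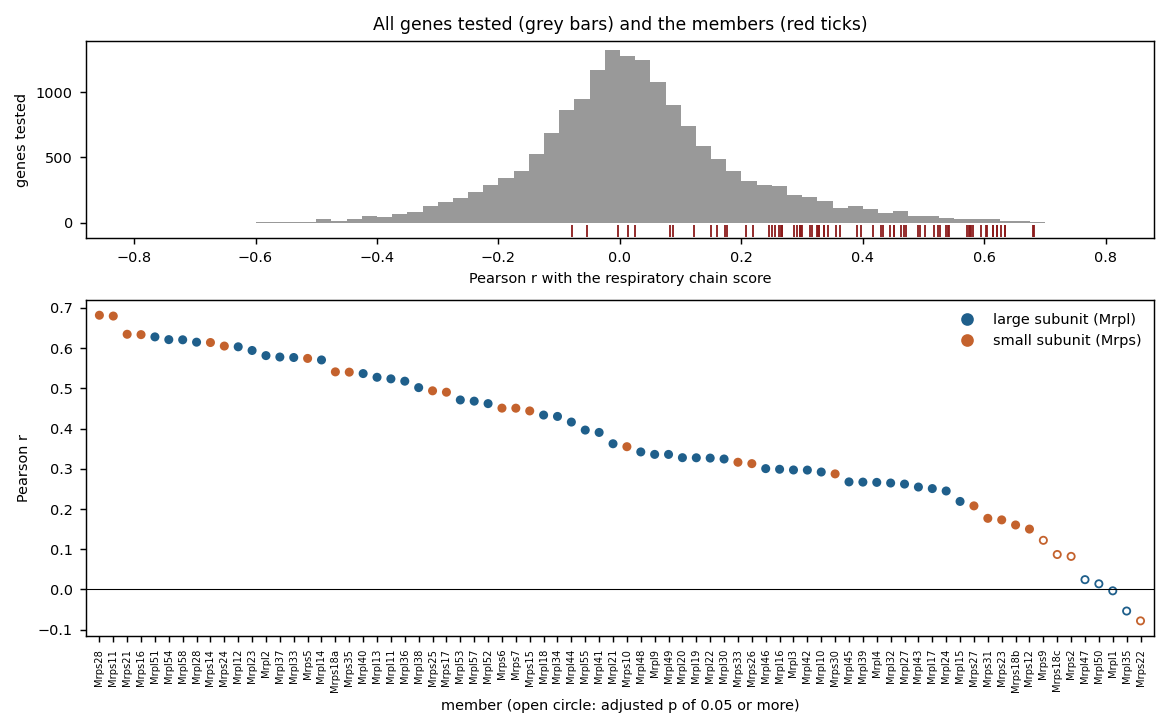
Pearson r with the respiratory chain score. Above, grey bars count all 16576 genes tested by r and red ticks mark the 76 members; below, each member is a point (blue large, orange small subunit, open where the adjusted p was 0.05 or more), and 68 are filled, from Mrps28 at 0.682 down to Mrps12 at 0.150.

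Taken as means over the animals, the member score and the respiratory chain score had r = 0.677 and rho = 0.631 (294 animals, given without a p). The r was 0.640 without the low-correlation arrays, 0.699 below and 0.675 above the Y-linked gap, and it was positive in 15 of 15 label blocks, from 0.358 to 0.902. The respiratory score itself had r = -0.268 with the array median. By complex, the member score had r = 0.714 with the 30 genes of complex I, the NADH dehydrogenase, 0.605 with the 9 of complex III and 0.633 with the 9 of complex IV, cytochrome c oxidase. It had 0.571 with the 15 genes of ATP synthase and 0.281 with the 4 of complex II, the smallest of these lists. The lists differ in size, and the part of size in these values was not tested. Within the sides of the Y-linked gap, complex II had 0.495 below and 0.264 above, and the other complexes had 0.583 to 0.737. Differences between complexes were not tested. Lists for other steps of mitochondrial expression, described at the end, also followed the member score. The r was 0.866 for respiratory assembly factors, 0.832 for import genes, 0.814 for ribosome assembly factors and 0.762 for mitochondrial aminoacyl-tRNA synthetases. It was 0.701 for translation factors and 0.505 for transcription genes. The relation is therefore not particular to the respiratory chain genes.

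Gene by gene, the mean r of members with respiratory genes was 0.206, against 0.0138 for the genes that are not members, dim ones included. A value for the brighter genes alone was not taken. The members' value was 0.182 without the low-correlation arrays. In complex I, Ndufb2, an accessory subunit, had the highest mean r with the members, 0.364, and was positive with 69 of 76. Ndufs1, the iron-sulfur subunit of the core, had the lowest, -0.0997, and was positive with 20. In complex III the extremes were Uqcrq at 0.373 and the core protein Uqcrc2 at -0.104. In complex IV they were Cox4i1 at 0.349 and Cox7a1, the heart and muscle form, at 0.101. The Cox7a1 probe was dim, with a median of 4.61 log2, near the array medians. In ATP synthase the extremes were Atp5md at 0.341 and Atp5pb at -0.0635, and in complex II Sdhb at 0.263 and Sdhd at -0.0639. Within 4 of the 5 complexes the genes thus lay on both sides of 0.

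**Figure D4:**
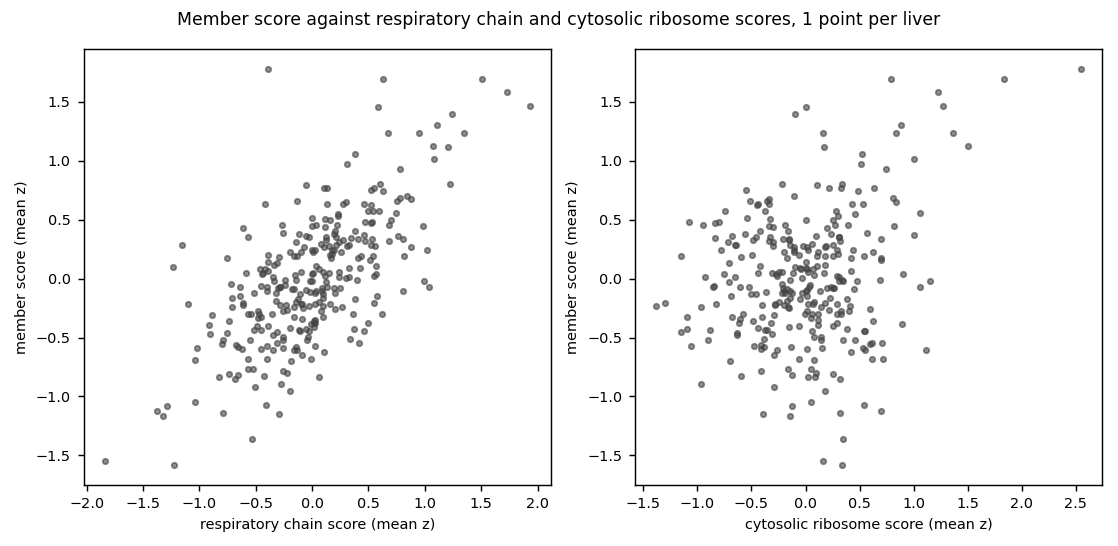
Member score (vertical axis, mean standardised level of the 76 members) against the respiratory chain score (left) and the cytosolic ribosome score (right), 1 point per liver. The left cloud slopes upward with r = 0.677, and the right one is wide with r = 0.248.

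The cytosolic ribosome, which translates nuclear messages, was the comparison. Its score used the 26 measured genes of 76 listed, so most of the listed cytosolic ribosomal genes are not in it. By the permutation test over 16617 genes, 41 members were positive and 3 negative, against a background of 16.4% positive and 14.3% negative. Among genes above the median mean level the background was 29.9% positive and 22.8% negative. The median r of the members was 0.156. Mrpl52 was highest at r = 0.525, then Mrpl54 at 0.440, Mrpl58 at 0.429 and Mrpl12 at 0.429. Mrpl16 at -0.231, Mrps18c at -0.198 and Mrpl1 at -0.147 were negative. The positive count was 20 without the low-correlation arrays, against 12% of all genes, and 23 with Spearman's rho, against 12.7%. It was 26 with the 2 animals of most distant score left out, against 14.7%. Below the Y-linked gap it was 23, against 9.09% of all genes, and above it 45, against 12.9%. The member score had r = 0.248 and rho = 0.111 with this score, and r was 0.121 without the low-correlation arrays, 0.114 below and 0.435 above the gap. The difference between the respiratory and cytosolic relations was not tested.

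Between label blocks 59 of 76 members differed by limma's moderated F test over 15 blocks, against a background of 32.7% of 16643 genes. The block took a median of 11.6% of a member's variance and 7.01% over all genes. The largest F was that of Mrpl12, the stalk protein that is also known to bind the mitochondrial RNA polymerase, at 9.82 with 32.97% of its variance and a limma adjusted p of 1.82e-15. Its block means ran from 10.58 ± 0.194 (SD, n = 19) in the lowest block to 11.04 ± 0.254 (SD, n = 23) in the highest. Mrpl37 had F = 7.29, Mrps11 had 7.17 and Mrps28 had 7.01, and all 4 genes were highest in the same block. The member score was highest there too, with a mean of 0.476, and the lowest block mean was -0.304.

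That block carried part of this count. Without it 37 members were called, against 27.6% of all genes, whereas leaving out any other block gave 54 to 60. Within animals below the Y-linked gap 29 members were called, against 15.9% of all genes, and above it 55, against 28.3%. Without the low-correlation arrays 40 were called, against 22.5%. Among genes above the median mean level 62 members were called, against 59.5%. With block means removed from every gene the mean pairwise r of the members was 0.303. Whether that block differs in animals or in handling cannot be told apart from the labels.

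A few members had most of their nearest genes on their own chromosome, a pattern looked for after the values were seen and given as a description. Among the 20 genes of highest absolute r with a member, the median number on the member's chromosome was 1, as it was over all genes. At least 5 were found for 6 members, or 6 of 76, against 5.96% of all genes, and at least 15 for 3 of 76, against 1.92%. Both counts are small and were not tested against those shares. The pattern is therefore given for single genes and not as a trait of the members as a set.

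Mrpl27 had 20 of 20 on chromosome 11. The nearest were Phb, encoding prohibitin of the mitochondrial inner membrane, at r = 0.746 and 18 genes away, Brip1os at 0.674, the pyruvate dehydrogenase kinase Pdk2 at 0.667 and 6 genes away, Mrpl45 at 0.658 and 56 genes away, and Cisd3 at 0.651. Mrpl45 had 15 of 20 on the same chromosome, led by Cisd3, a mitochondrial iron-sulfur protein 6 genes away, at r = 0.672, and Phb at 0.666. Mrps12 had 19 of 20 on chromosome 7, with Tbcb, a tubulin folding cofactor 42 genes away, at r = 0.824, Capns1, the calpain small subunit, at 0.735, Pop4 at 0.679, Tmem147 at 0.678 and Zfp74 at 0.676. Without the low-correlation arrays, Mrpl27 with Phb had r = 0.752, Mrps12 with Tbcb 0.798 and Mrpl45 with Cisd3 0.651. The 3 members were also among the 6 widest, and their r with the other members was 0.361, 0.325 and 0.374, below the median of 0.583.

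Mrpl10 had 9 of 20 on chromosome 11, led by Nme1 at 0.689, Mrpl22 had 7 and Mrpl12 had 5. Between members, pairs on 1 chromosome had a mean r of 0.314 and the 2673 other pairs 0.301. The gene order is that of the reference assembly.

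**Figure D5:**
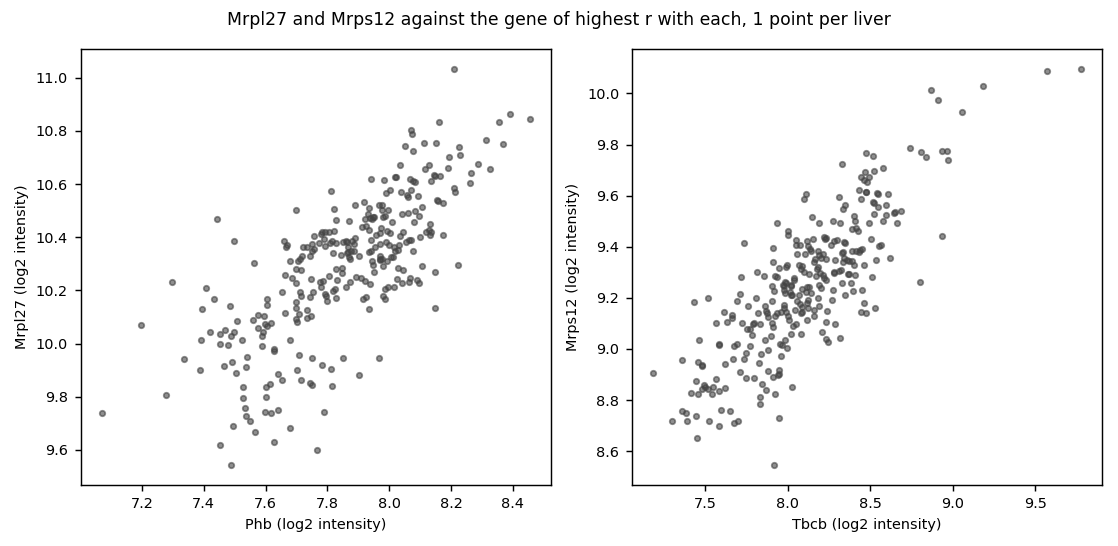
Levels of Mrpl27 against Phb (left, r = 0.746) and of Mrps12 against Tbcb (right, r = 0.824), both axes in log2 intensity, 1 point per liver (294). Both clouds slope upward over their whole length, and the highest Mrps12 animals are also the highest for Tbcb.

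Over the pairs of a member and an adjacent gene the median absolute r was 0.144, against 0.112 over all adjacent genes. Head-to-head partners, with starts on opposite strands within 1000 bases, were found for 23 of the 68 members, in 22 pairs. Their median r was 0.144, with 17 of 22 above 0. Over 622 head-to-head pairs of all measured genes the median r was 0.114, and the share of those above 0 was not counted. Those pairs used only the first start window of each gene, whereas partners of members were sought among all windows. The medians are therefore not strictly alike. Mrpl32 with Psma2, whose shared start region is printed above, was highest at r = 0.592. Mrpl2 with Klc4 had 0.459, and Mrps27 with Ptcd2, another mitochondrial pentatricopeptide repeat gene, had 0.337. Mrpl43 with Twnk, the mitochondrial DNA helicase, had 0.265. Mrps12 with Sars2, the mitochondrial seryl-tRNA synthetase, had -0.0950.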

How the data were processed

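Total RNA of 294 livers was amplified, labelled with biotin and hybridised to Affymetrix mouse arrays, per the labels' protocols. The deposited values are linear intensities, made with RMA per the submitters' processing notes, with no version; the array's genome build is not given in the sources used here. All 294 columns were matched to samples by the sample identifiers in the header, and titles gave the animal and block. log2 of each deposited intensity was taken with no pseudocount, and of several probes the one of highest mean was used. Of 32640 probes, 25508 had 1 gene symbol and 7132 none; symbols were updated through RefSeq synonyms. The members, gene lists and comparisons were chosen with earlier results of these data known.

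Scores are means of standardised levels over a list. Each gene's Pearson r with a score was tested by a two-sided permutation test with 100000 resamples on the whole table, with Benjamini-Hochberg adjustment at 0.05. Label blocks were tested with limma 3.58.1. Mixtures were compared by the Bayesian information criterion. Analyses used Python 3.11.15, numpy 2.4.6, scipy 1.17.1 and R 4.3.3, and were tested on simulated data. Nothing says how the animals share litters or cages, so p-values measure the spread between these animals only, and the number of arrays limits the precision. Genes were named by a rule: the extremes of spread, of r with the other members and with the respiratory score, of pairs and of block F, listed regulators and unusual ribosomal symbols, extremes of each complex, and multi-probe members of lowest r. Head-to-head and own-chromosome partners were added after values were seen. Alternatives tried were quantile normalization, block means or the first principal component removed, low-correlation arrays left out, each side of the Y-linked gap, the mean of probes, genes above the median mean, Spearman's rho, limma, covariates and stricter class rules. Added after seeing the data were the array median as a covariate or regressed out, leaving out the 2 farthest animals or each block, and annotated symbols alone.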

Additional observations from a re-analysis of the deposited data

How the results depend on the processing

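No paired analysis was possible because the animals form 1 group. None of the counts, mean correlations and spreads of the members recomputed here changed sign, but r of single members near 0 did. The mean pairwise r of the members lay between 0.250 and 0.315 under the alternatives other than regressing out the array median, which gave 0.228. The median spread was 1.26 below the Y-linked gap. The positive count with the respiratory score stayed within 1.5 times 68 in every alternative run. Its negative count went from 0 to 1 with quantile normalization (Mrpl35), to 1 with the mean of probes (Mrpl50) and to 2 with the array median as a covariate (Mrpl35 and Mrps22). The positive count with the cytosolic score fell to 20 without the low-correlation arrays, 23 below the gap, 23 with Spearman's rho and 26 without the 2 farthest animals. Its negative count was 6 below the gap, 1 above it and 1 with the array correlation as a covariate. Block calls were 59 in all animals, 29 below the gap, 55 above it, and 37 without the label block of highest member score. Class shape was called for 2 members after quantile normalization, 1 with the first principal component removed and 1 above the gap. The causes of these changes were not tested. Levels come from probes, so a dim second probe of a gene says little, and splicing or sequence differences between the strains under a probe were not tested.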

Other observations

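The median r of all genes with the member score was -0.00632. Outside the members the highest were Bola1, a mitochondrial iron-sulfur cofactor protein, at r = 0.838 and rho = 0.795, Timm13, an import chaperone of the intermembrane space, at 0.823, the matrix protease Clpp at 0.819, the exosome subunit Exosc5 at 0.807 and Coa3, a complex IV assembly factor, at 0.801. They were followed by the splicing factor Sf3b5 at 0.792, Malsu1, an assembly factor of the large mitochondrial subunit, at 0.791, Rex1bd at 0.790, Banf1 at 0.786 and Get3 at 0.784. Malsu1 was positive with all 76 members. The lowest were the ubiquitin ligase Mib1 at -0.563, the RNA helicase Ddx3x at -0.563, Jmjd1c at -0.540, Gnai3 at -0.538 and the sterol exporter Abca1 at -0.538.

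Mitochondrial ribosomal genes with other symbols, and the insertase Oxa1l listed with them, varied together less than the members. The mean pairwise r among these 5 genes was 0.0411, against 0.302 among the members. Chchd1 had r = 0.632 with the member score, Gadd45gip1 0.382, Dap3 0.374, the insertase Oxa1l 0.250 and Ptcd3 -0.120. Gadd45gip1 ranged from 7.29 through 8.30 to 9.81 log2 with a fold of 2.29, wider than any member. Of lists of genes for other steps of mitochondrial expression, 21 of 21 measured respiratory assembly factors had positive r with the member score, as did 18 of 19 ribosome assembly factors, 17 of 19 import genes, 14 of 16 mitochondrial aminoacyl-tRNA synthetases, 8 of 11 translation factors and 7 of 8 transcription genes. Of all genes outside the members 48.6% had a positive r with that score, and 62.6% of those with a mean signal above the median. With the respiratory chain score, 14 of the 21 assembly factors, 15 of the 19 import genes, 11 of the 19 ribosome assembly factors, 9 of the 16 synthetases, 6 of the 11 translation factors and 3 of the 8 transcription genes were called positive. In the opposite direction 0, 2, 1, 0, 2 and 2 of them were called, in the same order. The background was 20.4% of all genes positive and 13.9% negative. Among genes above the median mean level it was 35.3% positive and 20.9% negative. The counts of the transcription genes lie near those shares.

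Among listed nuclear regulators, Esrra, the estrogen-related receptor alpha, had r = 0.530 with the member score, Nrf1 0.394, Yy1 0.242, Gabpb1 0.176, Pprc1 0.139 and Atf4 0.0920. Ppargc1b had -0.00985, Myc -0.0126, Gabpa -0.167, Ppara -0.187 and Ppargc1a, the coactivator PGC-1alpha, -0.279. Within the sides of the Y-linked gap Ppargc1a had -0.0803 below and -0.195 above, both nearer 0 than the pooled value. Esrra had 0.572 and 0.486, Nrf1 0.315 and 0.376, and Gabpa -0.107 and -0.369. These are message levels only. Members whose start windows held the NRF1 letters had a median r of 0.330 with the respiratory score (10 genes), and those without 0.359 (58 genes). With the ETS letters it was 0.327 (17 genes), and without 0.355 (51 genes). With the YY1 letters it was 0.599, in 2 genes only, and without 0.339 (66 genes).

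Cell type lists also moved with the member score, and their part in the results was not tested. The score of T and NK cell genes had r = -0.387, with -0.340 below and -0.295 above the Y-linked gap and 0 of 6 genes positive. That of Kupffer cell genes had -0.234 over all animals but -0.113 below and -0.0471 above, with 0 of 10 positive. Hepatocyte genes had -0.396, with -0.288 below and -0.386 above and 1 of 4 positive, and cholangiocyte genes 0.267, with 0.234 and 0.279 and 4 of 4. The cholangiocyte list had a mean level of 4.07 log2, below every array median, and a mean pairwise r of 0.120. The 4 hepatocyte genes also varied together little, with a mean pairwise r of 0.123. The T and NK cell list had a mean level of 4.43, within the range of the array medians. Muscle genes had r = 0.0159 with the member score, with 0.0350 and 0.0341, and pancreas genes -0.122, with -0.0982 and -0.185. Fatty acid oxidation genes, also mitochondrial, had r = -0.0414 with the member score, with 4 of 13 positive, but 0.201 below and 0.0147 above the Y-linked gap. Cholesterol synthesis genes had 0.206, with -0.0234 below and 0.188 above. For fatty acid oxidation genes the values over all animals and above the gap lie near 0. The value of cholesterol synthesis genes below the gap does too. The signs of these values are therefore not read as a pattern. The Y-linked genes themselves had r = 0.279 with the member score over all animals, with 3 of 3 positive. Within the sides of the gap they had 0.241 below and -0.298 above, so the sign differed. The part of this relation in the pooled values was not tested.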
